A study of Mus musculus with 6 samples.

Results

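This account covers 28 mouse genes of cholesterol synthesis and sterol control in natural killer (NK) cells of the spleen. They were chosen by gene symbol and by role: 18 enzymes in pathway order, 5 genes of the SREBP control system and 5 genes of sterol transport and efflux. All 28 were found in the deposited table of 55291 genes, and all 28 were among the 16480 genes that had enough counts to be tested. Transcripts were counted in 6 mice at steady state, in 2 groups. The S303/7A group (libraries 5, 6 and 7) carried serine-to-alanine changes at a pair of sites in heat shock factor 1 (HSF1), the factor that switches on chaperone genes under stress. The wild-type (WT) group (libraries 1, 2 and 3) carried normal HSF1. HSF1-enhanced is the series text's term for the S303/7A mice, and unstimulated NK cells of the pair of genotypes are compared. Each library came from the CD49b-positive, CD3e-negative splenocytes of 1 mouse. The labels used here give no strain background, age or sex.

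Cells make cholesterol from acetyl-CoA by way of mevalonate, farnesyl diphosphate, squalene and lanosterol, and the last enzymes turn lanosterol into cholesterol. When sterols run low, SCAP carries the SREBP transcription factors out of the endoplasmic reticulum for cleavage, and the released fragments switch on the genes of the pathway together. INSIG proteins hold SCAP back when sterols are plentiful, and oxysterols then activate LXR, which drives efflux through ABCA1 and ABCG1. In lymphocytes this pathway supplies membrane for growth, and NK cells raise it on cytokine stimulation.

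Total counts were 43189163 to 47248039 per library in S303/7A and 53845572 to 72736406 in WT, so depth differed with genotype. Levels are given as CPM, the count per 1e+06 counts of the tested genes in that library, scaled by TMM factors. Folds are given as log2 of S303/7A over WT with their standard error (SE). A gene is called when its adjusted p in edgeR's quasi-likelihood test is below 0.05. The NK markers chosen as a check were 10 genes that include Ncr1, Klrb1c and Prf1. They summed to 16906 to 18304 CPM in S303/7A and 16215 to 20086 CPM in WT, and none was at 0. Single NK markers differed in both directions. Klrb1c was at 1640 to 1755 CPM in S303/7A and 2256 to 2663 CPM in WT. Klrk1 was at 1848 to 2276 CPM in S303/7A and 1357 to 1483 CPM in WT. Of the 10, 5 had a log2 fold below 0. Among them 1 was called lower, against 0.231% of all genes tested, and 0 were called higher. The 9 basophil markers summed to 257 to 360 CPM in S303/7A and 420 to 858 CPM in WT. The 9 platelet markers summed to 111 to 154 and 240 to 265 CPM in these groups, the 8 neutrophil markers to 33.9 to 37.6 and 50.4 to 75.3 CPM, and the 8 erythroid markers to 11.5 to 13.96 and 17.6 to 24.7 CPM. Cxcr2 made up most of every neutrophil sum and Gata1 most of every erythroid sum, so each of these sums mainly followed a single gene. S100a8, S100a9, Hbb-bs and Hba-a1 were at 2.32 CPM or less in every library and overlapped between the genotypes. Of the tested markers, 9 of 9 for basophils and 8 of 8 for platelets had a log2 fold below 0. For neutrophils 3 of 5 and for erythroid cells 4 of 7 were below 0. In the basophil and platelet lists 1 marker each was called lower, against 0.231% of all genes tested. The neutrophil and erythroid lists had 0 called. For the basophil, platelet, neutrophil and erythroid lists the highest S303/7A sum was below the lowest WT sum. No marker in these 4 lists was at 0 in all libraries, and their part in the results below was not tested. The 8 T cell markers lay apart the other way, at 179.8 to 206 CPM in S303/7A and 129 to 176 CPM in WT, and their part was not tested either. B cell, monocyte and dendritic cell sums overlapped between the genotypes, at 8.88 to 70.6 CPM in S303/7A and 8.90 to 78.3 CPM in WT. In these sorted bulk samples, fewer cells of a type and less RNA per cell cannot be told apart.

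Of the 28 genes, 1 was called. Dhcr7, which encodes the reductase that makes cholesterol from 7-dehydrocholesterol in the last step of the pathway, was higher in S303/7A by 2.23-fold. No gene was called lower. Over all genes tested 60 were called, or 0.364%, of which 22 (0.133%) were higher and 38 (0.231%) lower. When S303/7A 5, 6 or 7 was left out, 31, 57 and 30 genes were called, and when WT 1, 2 or 3 was left out, 27, 5 and 21. At an unadjusted p under 0.05 there were 3 of the 28 genes (Dhcr7, Hsd17b7 and Ebp), against 9.68% of all genes tested. All 3 libraries of 1 genotype lay above all 3 of the other in 4 of the 28 (2 above in S303/7A, Dhcr7 and Ebp, and 2 below, Hsd17b7 and Tm7sf2), against 16.0% of all genes tested (7.64% above and 8.37% below), so that this count was near the background. The median log2 fold of the 28 was 0.05, with 16 above 0 and 12 below, beside a median of 0.01 over all genes tested, of which 51.7% were above 0.

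**Figure D1:**
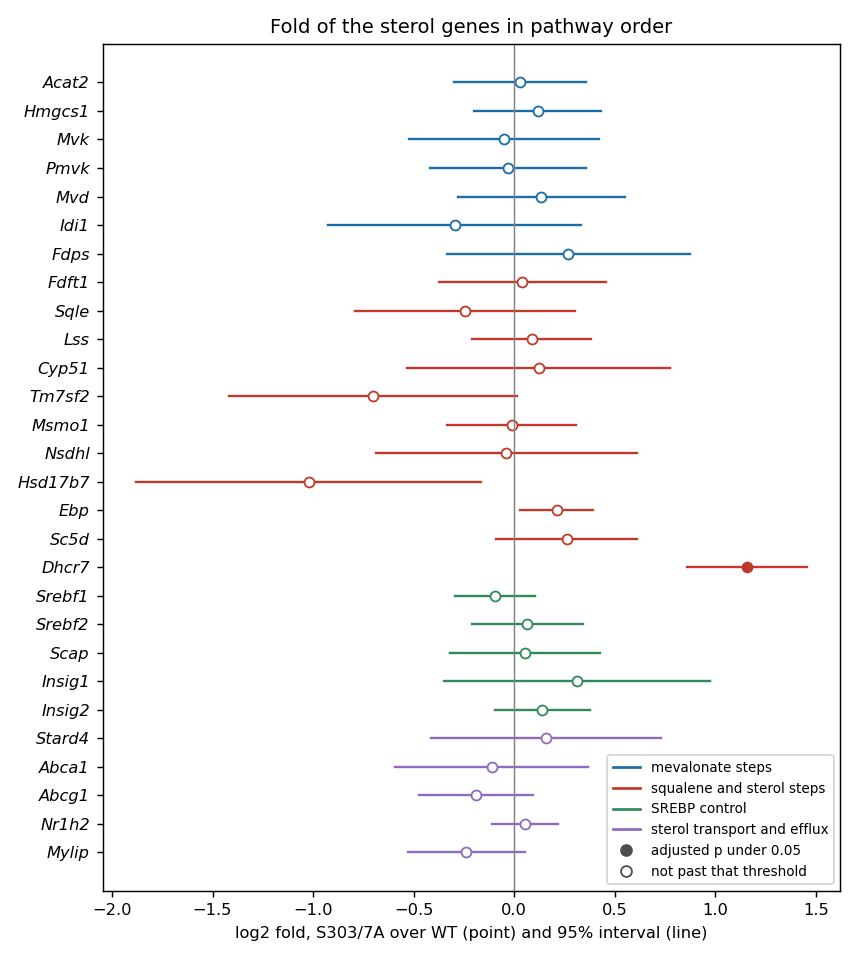
Log2 fold of S303/7A over WT (x axis) for each of the 28 genes in pathway order (y axis), with its 95% interval as a line. The filled point, Dhcr7 at 1.16, is the one past an adjusted p of 0.05, while Hsd17b7 at -1.02 and Tm7sf2 at -0.70 have wide intervals and the other open points lie between -0.30 and 0.31.

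Among the 27 genes that were not called, adjusted p values ran from 0.432 to 0.989. The 95% interval of the fold stayed within 1.5-fold either way for 16 of these 27 and within 2-fold for 25. For those 25 genes a change as large as that of Dhcr7 would lie outside the interval. The exceptions were Hsd17b7 and Tm7sf2, whose intervals reached beyond a 2-fold decrease.

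Sequence is shown for the 4 genes that carry the comparison at the promoter. They are Dhcr7, the called gene, Ebp and Hsd17b7, which lay apart between genotypes in opposite directions, and Hmgcs1. Among the members searched, only the Hmgcs1 promoter held a match to the sterol regulatory element, the site that SREBP binds. RefSeq promoters (GRCm38, 250 bases before to 50 after each start) were matched for 23 of the 28 genes, with 31 starts in all. The other 5 genes were not searched. The element was searched as TCACNCCAC and the CCAAT box, a site of NF-Y, which works with SREBP at sterol promoters, as CCAAT, each on both strands and with no overlap between them. Each stretch below lies before the first listed RefSeq start, is free of annotated exons, and is written 5′ to 3′ on the gene's strand with matches to these motifs in capitals.
Dhcr7, chr7:143822917-143823144, plus strand: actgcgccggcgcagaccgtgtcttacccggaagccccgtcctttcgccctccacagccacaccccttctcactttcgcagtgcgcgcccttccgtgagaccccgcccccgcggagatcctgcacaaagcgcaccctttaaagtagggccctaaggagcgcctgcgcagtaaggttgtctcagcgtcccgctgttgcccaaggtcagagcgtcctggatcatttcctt
Ebp, chrX:8193513-8193762, minus strand: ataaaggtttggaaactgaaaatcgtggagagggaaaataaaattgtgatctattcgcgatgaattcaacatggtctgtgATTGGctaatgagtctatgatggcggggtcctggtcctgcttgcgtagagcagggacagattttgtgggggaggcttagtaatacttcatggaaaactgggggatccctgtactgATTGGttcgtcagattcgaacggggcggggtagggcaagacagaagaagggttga
Hsd17b7, chr1:169969242-169969408, minus strand: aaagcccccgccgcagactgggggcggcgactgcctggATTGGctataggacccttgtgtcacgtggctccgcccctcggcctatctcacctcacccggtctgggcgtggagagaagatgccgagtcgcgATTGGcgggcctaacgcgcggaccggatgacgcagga
Hmgcs1, chr13:119690101-119690350, plus strand: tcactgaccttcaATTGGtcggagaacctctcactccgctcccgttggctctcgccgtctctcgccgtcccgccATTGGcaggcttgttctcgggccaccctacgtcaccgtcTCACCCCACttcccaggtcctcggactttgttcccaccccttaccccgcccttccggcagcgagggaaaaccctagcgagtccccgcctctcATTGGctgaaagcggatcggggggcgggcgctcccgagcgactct

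RefSeq lists 3 starts for Dhcr7, and a window downstream of the stretch above, 143829964 to 143830263, held 2 CCAAT boxes. They are shown as stretches of 30 bases, for which overlap with annotated exons was not counted.
Dhcr7, chr7:143830117-143830146, plus strand: tcactgccttcaCCAATcacaggacgcagc
Dhcr7, chr7:143830153-143830182, plus strand: aatccacttccgATTGGtcgtctgtgacct
A CCAAT box was present in 20 of the 31 member windows, for 19 of the 23 matched genes, and in 37.4% of all 32851 promoter windows of the same length. The GC box GGGCGG, a site of Sp1, was present in 25 of the 31 windows and in 35.7% of all windows. The sterol element matched in 1 of the 31 windows (Hmgcs1) and in 1.24% of all windows. The heat shock element that HSF1 binds, searched as GAANNTTCNNGAA on both strands, matched in 1 member window, that of Nr1h2, and in 0.603% of all windows.
Nr1h2, chr7:44554082-44554111, minus strand: aaacgaaaGAACTTTCCGGAActtttttct
Here the capitals mark the heat shock element. An LXR element, searched as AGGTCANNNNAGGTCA, matched in 0 member windows and in 0.0152% of all windows. A match describes letters and not a bound site, and Hmgcs1, Nr1h2 and the genes with CCAAT boxes other than Dhcr7 were not called. Each motif was searched in 1 form, so a window without a match may still hold a variant of the site.

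Dhcr7 (chromosome 7, 143823145 to 143848410, plus strand, GRCm38) was measured at 71.7, 81.1 and 62.5 CPM in S303/7A libraries 5, 6 and 7, against 35.3, 29.8 and 31.3 CPM in WT libraries 1, 2 and 3. Every S303/7A library lay above every WT library, and the lowest S303/7A value was well clear of the highest WT value. The means were 71.8 ± 9.31 CPM in S303/7A and 32.2 ± 2.84 CPM in WT (SD, n = 3 each), from 2919 to 3497 counts per S303/7A library and 1622 to 2303 per WT library. The log2 fold was 1.16 ± 0.13 (SE), its 95% interval ran from 0.86 to 1.45, and its adjusted p was 0.0199 (edgeR quasi-likelihood). By p it ranked as gene 25 of 16480.

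The size of the Dhcr7 difference held across settings, but its call did not. Leaving out 1 library at a time gave log2 folds from 1.06 to 1.24, and the adjusted p in edgeR's quasi-likelihood test was 0.0525 without WT 1, 0.138 without WT 2, 0.0856 without WT 3 and 0.101 without S303/7A 5. It was 0.0450 without S303/7A 6 and 0.0359 without S303/7A 7. After the counts were thinned to equal totals, which removes the difference in depth, it was 0.0223. The adjusted p was 0.0333 in limma-voom and 5.03e-14 in DESeq2.

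**Figure D2:**
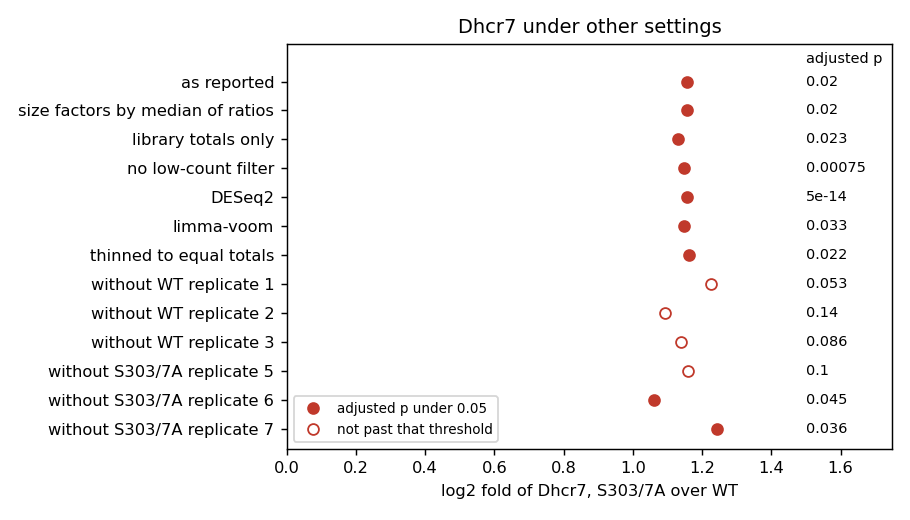
Log2 fold of Dhcr7 in S303/7A over WT (x axis) in the fit as reported and under 12 other settings (y axis), with the adjusted p of each at the right and filled points for those below 0.05. The folds lie between 1.06 and 1.24, and 4 of the 6 fits that leave out 1 library are not past the threshold.

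The genes beside Dhcr7 were not called. Nadsyn1, an NAD synthase gene whose midpoint lies 26.6 kb away, averaged 34.4 CPM in S303/7A and 41.7 CPM in WT (log2 fold -0.28 ± 0.13, SE, adjusted p 0.547, edgeR quasi-likelihood). Osbpl5, a lipid transfer protein gene 112.9 kb away, averaged 280.4 and 271.1 CPM in these groups. Of 93 other tested genes within 5 Mb of Dhcr7, 1 was called (Ifitm1), against 0.364% of all genes tested. Some Dhcr7 transcripts share stretches of 201 to 227 bases, at 95% identity or more, with transcripts of 22 other genes, so reads from those stretches are uncertain.

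The enzymes of the steps just before Dhcr7 were not called. Ebp, the sterol isomerase (chromosome X, 8185329 to 8193512), had 101, 104 and 94.5 CPM in S303/7A 5, 6 and 7, against 84.9, 83.2 and 90.5 CPM in WT 1, 2 and 3. The groups did not overlap, but the gap was small and the log2 fold of 0.21 ± 0.08 (SE) was not called (adjusted p 0.446, edgeR quasi-likelihood). Sc5d, the desaturase that makes the substrate of DHCR7, was at 161, 120 and 113 CPM in S303/7A, against 113, 96.6 and 119 CPM in WT. S303/7A 5 was the high library, the other values overlapped, and the log2 fold of 0.26 ± 0.15 was not called (adjusted p 0.666, edgeR).

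Hsd17b7 encodes the 3-ketosteroid reductase that completes removal of the C4 methyl groups. It had 2.92, 7.07 and 3.94 CPM in S303/7A 5, 6 and 7, against 9.07, 12.1 and 7.11 CPM in WT 1, 2 and 3. All S303/7A values were below all WT values, but S303/7A 6 was close to WT 3, and the spread within each genotype was the widest of the 18 enzymes in S303/7A (coefficient of variation 46.7%) and second to Fdps in WT (26.8% against 27.1%). The log2 fold was -1.02 ± 0.36 (SE, adjusted p 0.432, edgeR quasi-likelihood), and it ran from -1.46 to -0.78 over the other settings with no call in any.

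Hsd17b7 lies on chromosome 1 (169949535 to 169969241). There 8 of 120 other tested genes within 5 Mb were called, against 0.364% of all genes tested, among them Slamf1, Slamf6, Fcgr2b and Itln1. The nearest of these 8, the adaptor gene Sh2d1b2, has its midpoint 283.8 kb away and averaged 1.93 CPM in S303/7A and 7.34 CPM in WT. Of the other 27 members, 23 had no called gene within 5 Mb, Acat2, Dhcr7 and Nr1h2 had 1 each and Abcg1 had 2. The part of this neighbourhood in the Hsd17b7 values was not tested.

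Tm7sf2, the C14 sterol reductase gene, had 3.27, 1.67 and 2.95 CPM in S303/7A 5, 6 and 7, against 3.77, 4.91 and 4.18 CPM in WT 1, 2 and 3. The groups did not overlap, and S303/7A 6 was the lowest library, with 72 counts. The log2 fold was -0.70 ± 0.30 (SE; adjusted p 0.522, edgeR quasi-likelihood). Tm7sf2 shares 532 exon bases with Vps51, which overlaps it on the same strand and averaged 73.2 CPM in S303/7A and 72.7 CPM in WT, so its low counts are uncertain.

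**Figure D3:**
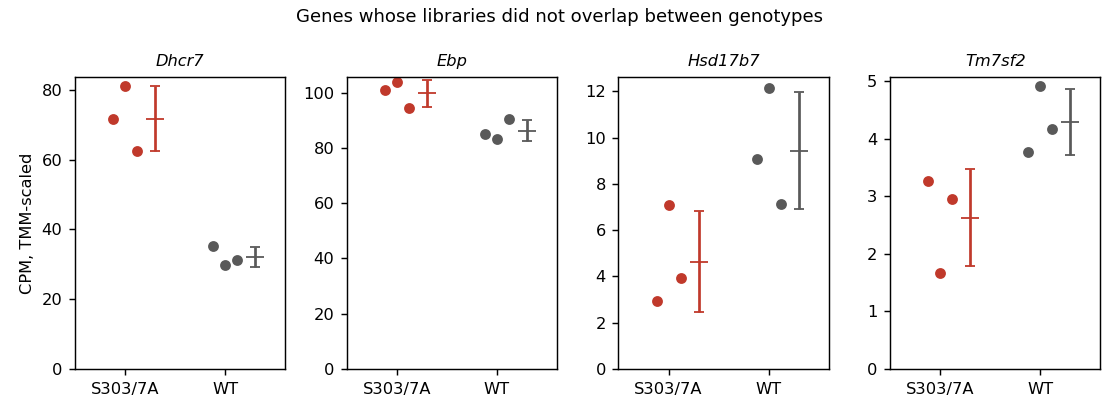
CPM (y axis, from 0) of the 4 genes whose libraries did not overlap between genotypes, with 1 point per library and the mean and SD of 3 beside them, S303/7A left and WT right. Dhcr7 is the gene with a wide gap (62.5 to 81.1 against 29.8 to 35.3), while the Hsd17b7 groups nearly touch at 7.07 and 7.11.

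None of the remaining genes from squalene onward was called. Fdft1, squalene synthase, averaged 17.7 ± 2.24 CPM in S303/7A and 17.2 ± 3.06 CPM in WT (SD, n = 3 each), Sqle, squalene epoxidase, 3.82 ± 0.843 and 4.54 ± 0.302 CPM, and Lss, lanosterol synthase, 30.4 ± 1.43 and 28.6 ± 3.40 CPM. Their log2 folds were 0.04 ± 0.18, -0.25 ± 0.23 and 0.09 ± 0.13 (SE). Msmo1, the C4 methyl oxidase, averaged 37.6 ± 4.32 and 37.9 ± 4.68 CPM in these groups. For these genes the libraries of both genotypes overlapped.

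A pair of enzymes varied mainly inside the S303/7A group. Cyp51, the lanosterol demethylase, had 22.0, 21.4 and 11.5 CPM in S303/7A 5, 6 and 7, against 16.0, 13.8 and 20.7 CPM in WT 1, 2 and 3. Nsdhl, the C4 decarboxylase on the X chromosome, was at 18.7, 39.2 and 39.5 CPM in S303/7A, against 36.5, 33.4 and 30.2 CPM in WT. For Cyp51 it was S303/7A 7 and for Nsdhl S303/7A 5 that lay below the others of its group, and the log2 folds were 0.12 ± 0.28 and -0.04 ± 0.28 (SE).

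None of the 7 mevalonate genes passed in edgeR, none had an unadjusted p under 0.05, and DESeq2 and limma-voom called none. Their log2 folds ran from -0.30 (Idi1, isopentenyl diphosphate isomerase) to 0.27 (Fdps, farnesyl diphosphate synthase), with a median of 0.03. Hmgcs1, the synthase at the start of the committed branch, had 53.7, 54.3 and 40.9 CPM in S303/7A 5, 6 and 7, against 49.0, 42.6 and 45.8 CPM in WT 1, 2 and 3, a log2 fold of 0.12 ± 0.13 (SE). In S303/7A, libraries 5 and 6 were above and library 7 was below all WT libraries.

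The kinases and the decarboxylase that convert mevalonate showed close means. Mvk averaged 4.71 ± 0.471 CPM in S303/7A and 4.88 ± 0.567 CPM in WT, Pmvk 9.31 ± 0.845 and 9.51 ± 1.00 CPM, and Mvd 21.1 ± 4.62 and 19.3 ± 1.02 CPM (SD, n = 3 each). Acat2, the thiolase that makes acetoacetyl-CoA in the cytosol, averaged 28.01 ± 4.27 and 27.5 ± 0.756 CPM in these groups. Idi1 and Fdps were at 1.86 ± 0.25 and 4.43 ± 0.359 CPM in S303/7A, against 2.28 ± 0.332 and 3.67 ± 0.996 CPM in WT. All of these overlapped between the genotypes.

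Counts of several enzymes are uncertain for reasons of sequence. Fdps matches 4 pseudogene or other transcripts over 605 to 1066 bases at 96.1% to 98.9% identity, Idi1 matches 2 over 681 to 684 bases, and Acat2 matches Acat3 over 1477 bases at 97.7% and Tcp1, with 57891 counts over the 6 libraries, over 445 bases at 98.7%. Some Msmo1 transcripts share 200 to 203 bases with 10 other genes. Fdft1 shares 774 exon bases with Ctsb, which lies on the opposite strand, and no source used here states the strand setting of the counting.

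Summed over the 18 enzymes, the level was 586, 594 and 529 CPM in S303/7A 5, 6 and 7 and 506, 478 and 495 CPM in WT 1, 2 and 3. The groups did not overlap, with means of 569 ± 35.5 CPM in S303/7A and 493 ± 13.96 CPM in WT. Without Dhcr7 the sum was 498 ± 27.3 and 461 ± 11.3 CPM, and the groups overlapped. Dhcr7 made up 12.2%, 13.7% and 11.8% of the enzyme sum in the S303/7A libraries and 6.98%, 6.23% and 6.33% in the WT libraries. These sums weight each gene by its level and were not tested.

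**Figure D4:**
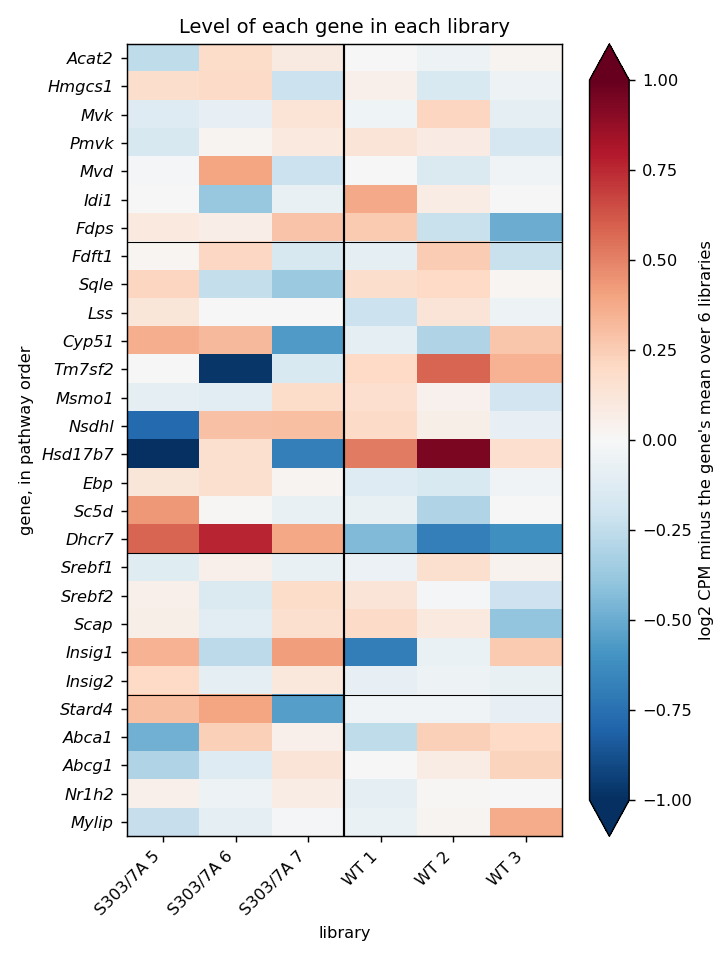
Log2 CPM of each of the 28 genes (rows, in pathway order) in each library (columns, S303/7A left and WT right), minus the gene's mean over the 6 libraries, with colours capped at 1 either way. Dhcr7 is the row in which all S303/7A cells are clearly high and all WT cells clearly low, while single cells stand out for Nsdhl in S303/7A 5 (18.7 CPM) and Tm7sf2 in S303/7A 6 (1.67 CPM).

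The genes that sense sterols and switch on the pathway were not called. Srebf2, which encodes the SREBP that drives cholesterol genes, had 130, 114 and 143 CPM in S303/7A 5, 6 and 7, against 137, 124 and 109 CPM in WT 1, 2 and 3. Srebf1, the SREBP gene tied to fatty acid synthesis, was at 128, 145 and 132 CPM in S303/7A, against 134, 156 and 143 CPM in WT. Values overlapped for both, with log2 folds of 0.06 ± 0.12 and -0.09 ± 0.09 (SE).

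Insig1, itself a target of SREBP, had the widest range of the control genes. It was at 20.7, 13.6 and 21.7 CPM in S303/7A, against 10.1, 15.5 and 19.5 CPM in WT, a log2 fold of 0.31 ± 0.28 (SE) with a 95% interval from -0.35 to 0.97. The WT libraries alone spanned nearly the whole range, so the difference was within the replicate spread. Insig2 averaged 55.7 ± 5.68 and 50.6 ± 0.502 CPM and Scap 89.4 ± 8.30 and 86.2 ± 17.7 CPM in S303/7A and WT (SD, n = 3 each). Of these 5 control genes 0 passed in edgeR, 0 had an unadjusted p under 0.05, and DESeq2 and limma-voom called 0.

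The transport and efflux genes were not called either. Abcg1, the exporter of sterols to lipoproteins, had 190, 214 and 256 CPM in S303/7A 5, 6 and 7, against 233, 247 and 273 CPM in WT 1, 2 and 3. Mylip, the LXR-induced ubiquitin ligase that degrades lipoprotein receptors, was at 174, 190 and 201 CPM in S303/7A, against 194, 208 and 263 CPM in WT. For both genes the lowest pair of values came from S303/7A 5 and 6, the groups overlapped, and log2 folds of -0.19 ± 0.12 and -0.24 ± 0.12 (SE) were fitted (adjusted p 0.707 and 0.620, edgeR quasi-likelihood).

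Abca1, the exporter to apolipoprotein A-I, was at 59.6, 97.7 and 86.1 CPM in S303/7A, against 69.7, 97.9 and 95.5 CPM in WT. Nr1h2, which encodes LXR beta, was the steadiest of the 28 genes over the 6 libraries, at 145 ± 6.8 and 140 ± 5.12 CPM (SD, n = 3 each), its highest value being 1.12 times its lowest. Stard4, a sterol carrier, was at 22.6, 24.1 and 12.5 CPM in S303/7A, where library 7 was low, and at 17.9, 17.9 and 17.3 CPM in WT. None of these 5 genes had an unadjusted p under 0.05 in edgeR, and DESeq2 and limma-voom called none.

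Per kilobase of exon, the 28 genes spanned about 2 orders of magnitude. The levels were highest for Mylip (58.2 CPM per kb in S303/7A and 68.6 in WT), Nr1h2 (43.2 and 41.6) and Ebp (43.2 and 37.3), and among the lowest were Idi1 (0.530 and 0.652), Sqle (0.690 and 0.818), Tm7sf2 (0.597 and 0.973) and Fdps (1.05 and 0.873). Among the enzymes Ebp and Sc5d (27.0 and 22.5) stood highest in both genotypes. Dhcr7 was at 12.3 CPM per kb in S303/7A, beside Nsdhl at 11.4, and at 5.53 in WT, beside Pmvk at 5.55. Exon lengths are unions over all annotated transcripts, so the level of a gene with long unused exons is understated.

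**Figure D5:**
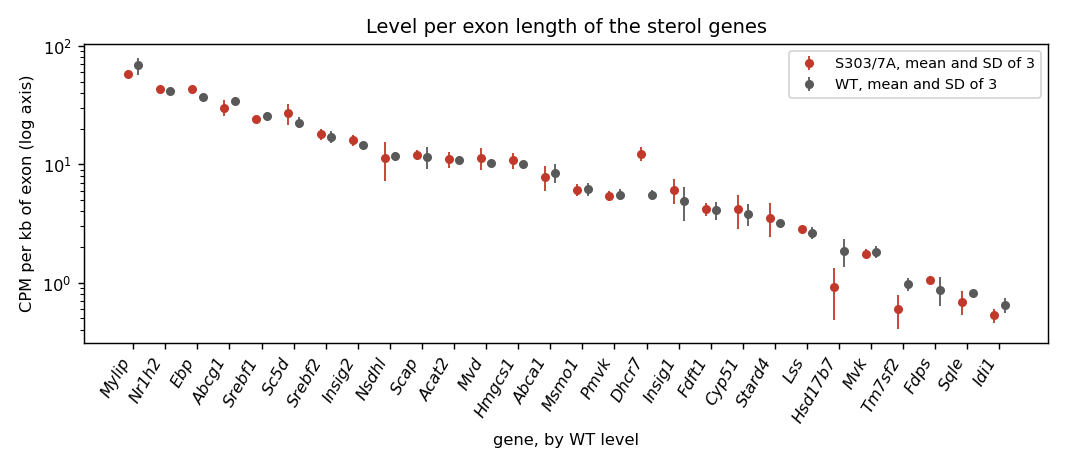
CPM per kilobase of exon (y axis, log scale) of the 28 genes, ordered by WT level, as mean and SD of 3 libraries, with S303/7A to the left of WT for each gene. Dhcr7 is higher in S303/7A (12.3 against 5.53) and Hsd17b7 lower (0.910 against 1.85).

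The genes were spread over 16 chromosomes, with Ebp and Nsdhl on X. Some lie near each other: Fdps starts at 89093588 and Pmvk at 89454541 on chromosome 3. No library was high or low throughout, since S303/7A 5, 6 and 7 held the highest value of 4, 6 and 6 of the 28 genes and the lowest of 8, 3 and 5, and WT 1, 2 and 3 the highest of 3, 7 and 2 and the lowest of 3, 3 and 6. The median coefficient of variation was 13.2% in S303/7A and 11.1% in WT.

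Other lists around the pathway were read from the same fit, and 0 of their genes passed in edgeR. Beside the counts for these lists, 9.68% of all genes tested had an unadjusted p under 0.05 and 51.7% had a fold above 0. In the list of SREBP processing and sterol-driven degradation, 3 of 12 had an unadjusted p under 0.05 and 8 had a fold above 0. Among the genes of sterol trafficking and esterification, 4 of 13 tested had an unadjusted p under 0.05 and 10 had a fold above 0, with a median log2 fold of 0.15. Gramd1b, a carrier of sterol from plasma membrane to endoplasmic reticulum, was at 109, 101 and 94.0 CPM in S303/7A, against 77.3, 74.0 and 80.5 CPM in WT. Its groups did not overlap, and its log2 fold was 0.39 ± 0.08 (SE, adjusted p 0.167, edgeR quasi-likelihood). Gramd1a and Gramd1b were called in DESeq2, which called 437 of all 16480 genes, and limma-voom called none of these lists' genes.

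The list of fatty acid synthesis under SREBP had 2 of 13 tested genes at an unadjusted p under 0.05, the smaller p being that of the elongase gene Elovl5 (225 ± 7.36 CPM in S303/7A and 195 ± 11.8 CPM in WT, SD, n = 3 each, log2 fold 0.20 ± 0.07). The other of these 2 genes had a fold below 0. The isoprenoid and prenylation list had 1 of 14, Rabggta, a subunit of the Rab prenylating enzyme (70.2 ± 4.02 and 85.1 ± 10.6 CPM, log2 fold -0.28 ± 0.11). Among LXR partners and targets 0 of 7 had such a p, the smallest being that of Arl4c (60.1 ± 16.8 and 47.3 ± 11.5 CPM). Median log2 folds of these 3 lists were -0.08, -0.04 and 0.12, and 4 of 13, 4 of 14 and 5 of 7 tested genes had a fold above 0. The 12 cell cycle genes, listed because sterol synthesis accompanies growth, summed to 639 to 906 CPM in S303/7A and 687 to 777 CPM in WT, with overlap, and 0 of them passed in edgeR.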

How the data were processed

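Sorted splenic NK cells of 6 mice gave 1 library each, made with the SMART-seq HT kit, per the labels' protocols. The authors deposited raw counts per gene. Trimmomatic, STAR, featureCounts and DESeq2 are named with build GRCm38 (mm10), per the submitters' processing notes. The labels used here give no version, annotation release or strand setting. A table of scaled values was not used here.

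The raw counts went into edgeR 4.0.16 (R 4.3.3). Genes were kept by filterByExpr with a minimum count of 10 and a minimum total of 15, libraries were scaled by TMM, and S303/7A was tested against WT by quasi-likelihood, with Benjamini-Hochberg adjustment over all 16480 genes kept. SE is the log2 fold divided by the square root of F. With 3 mice per genotype, the p-values reflect the spread between those mice, each gene's spread being moderated toward that of the other genes. limma 3.58.1 and DESeq2 1.42.0 were alternatives. As a check for a library deposited more than once, chi-square per gene between libraries of a genotype was 30.0 to 97.3, so no pair differed by as little as counting noise. Positions, exons and transcripts are from GENCODE mouse release 21, and transcripts were compared with blastn 2.17.0 (at least 95% identity over 200 bases).

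The members and lists were chosen with earlier results of these data known. All 28 members are named, and from each other list every called gene or else the gene with the smallest p, except for a result that is not reported here. Ifitm1, Nadsyn1, Osbpl5, Sh2d1b2, Slamf1, Slamf6, Fcgr2b, Itln1, Vps51, Gramd1a and Lpin1 were named after their values were seen. The same holds for the cell type markers Klrk1, Trbc2, Trac, Cxcr2, Gata1, S100a8, S100a9, Hbb-bs and Hba-a1.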

Additional observations from a re-analysis of the deposited data

How the results depend on the processing

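Dhcr7 was the 1 member called with median-of-ratios factors, library totals, no low-count filter, DESeq2, limma-voom and thinned counts. Leaving out 1 library gave 0 to 1 called members, 5 to 57 called genes over the table, 0 to 1 called genes in the other pathway lists (Lpin1 without S303/7A 7) and a median member log2 fold from -0.034 to 0.047. That median was 0.018 with library totals. Called genes numbered 171 without the filter, 437 in DESeq2 and 38 in limma-voom, against 60, and the other pathway lists had 1 without the filter and 3 in DESeq2. The cause was not tested.

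Signs changed for 12 members with folds near 0, none of them called. Log2 folds with 1 library left out ran from -0.061 to 0.15 for Acat2, -0.14 to 0.037 for Mvk, -0.11 to 0.041 for Pmvk, -0.053 to 0.26 for Mvd, -0.057 to 0.18 for Fdft1, -0.033 to 0.36 for Cyp51, -0.12 to 0.069 for Msmo1, -0.21 to 0.24 for Nsdhl, -0.020 to 0.14 for Srebf2, -0.11 to 0.17 for Scap, -0.011 to 0.40 for Stard4 and -0.27 to 0.068 for Abca1. With library totals Acat2 was at -0.00024, with limma-voom Msmo1 was at 0.00017, and with thinned counts Acat2 was at -0.013 and Pmvk at 0.050. No paired analysis was possible because the groups share no replicate numbers. Depth limits Idi1 and Tm7sf2 most, with as few as 68 and 72 counts in a library.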
